A study of Sus scrofa with 226 samples.

Results

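Described here are 4 genes, KCNA2, KCNG3, KCNIP1 and KCNIP4, in single neurons of the pig dorsal root ganglion (DRG), the ganglion that holds the cell bodies of sensory neurons. They are 4 of the 30420 genes in the deposited table, of which 14867 carry a symbol. KCNA2 has the identifier ENSSSCG00000037709, KCNG3 has ENSSSCG00000008465, KCNIP1 has ENSSSCG00000017003 and KCNIP4 has ENSSSCG00000023934. They were chosen because earlier results of these data had them higher in neurons that express OSMR, the receptor for oncostatin M, and related them to the recorded values. Their difference between OSMR-rich and OSMR-poor neurons, their co-expression over all cells and their relation to recorded values over all cells are therefore given as descriptions with no p-value.

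The data are the transcriptomes of single neurons from 10 wild-type pigs, each neuron recorded by patch clamp and then harvested for sequencing (Patch-seq). The study set out to find molecular markers of mechano-insensitive C-fibres, unmyelinated sensory fibres that do not respond to touch or pressure. Ganglia of cervical, thoracic and lumbar levels were dissociated, and the neurons were kept in culture for 1, 2 or 3 days before recording, so every cell had lost its axon and its contact with skin and spinal cord. The cells fall into 16 groups of age and time in culture. The pigs were 11, 12, 14, 15, 17, 18 or 20 weeks old. Day 1 cells came from all 10 animals, 78 cells from 9 animals were recorded at day 2 and 24 cells from 3 animals at day 3. There was no treated group. The replicate in every comparison is the animal, and the cells of 1 animal share its dissection and culture.

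All 4 genes belong to potassium channel complexes that set how a neuron fires and repolarizes. KCNA2 encodes the Kv1.2 subunit, a channel that opens at small depolarizations and restrains repetitive firing. KCNG3 encodes Kv6.3, a so-called silent subunit that forms no channel by itself and changes the gating of Kv2 channels when it joins them. KCNIP1 and KCNIP4 encode KChIPs, calcium-binding proteins that attach to Kv4 channels, which carry the fast-inactivating A-type current, and change their surface number and their inactivation. In sensory neurons Kv1, Kv2 and Kv4 currents are known to limit excitability.

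Each cell had between 109726 and 5506278 estimated counts (median 740525), and 3023 to 20463 genes with a count (median 13380). The neuronal markers UCHL1, TUBB3, SNAP25, ELAVL4, STMN2 and PRPH together had a median of 15370 CPM (counts scaled to the cell's total), so the label of neuron held. Their median was 13641 CPM in the lowest animal and 19094 CPM in the highest. A cell with at least 50 CPM of OSMR is called OSMR-high, and the others OSMR-low. There were 66 OSMR-high cells, at least 1 in each of the 10 animals, and 160 OSMR-low cells. The OSMR-high cells just above the threshold had 50.3, 63.2 and 71.6 CPM and the OSMR-low cells just below it 47.9, 45.8 and 43.5 CPM. Between 20 and 100 CPM lay 9 OSMR-high and 24 OSMR-low cells.

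KCNIP4 was found in nearly every neuron, KCNIP1 in most, and KCNA2 and KCNG3 in a minority. KCNIP4 had at least 1 count in all but 4 cells (98.2%, exact binomial 95% interval 95.5% to 99.5%), with a median of 316 CPM and a highest value of 6832 CPM. KCNIP1 had a count in 76.99% of cells (70.9% to 82.3%), with a median of 4.68 CPM. These intervals cover counting error only. KCNA2 had a count in 72 cells (31.9%, 25.8% to 38.4%) and KCNG3 in 64 cells (28.3%, 22.5% to 34.7%). In the cells that had any, the median was 9.82 CPM for KCNA2 and 11.7 CPM for KCNG3. Neither of these 2 channel subunits was abundant in any cell, with highest values of 90.6 CPM for KCNA2 and 102.7 CPM for KCNG3.

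The animals differed in how many of their cells had the rarer genes. KCNA2 was found in 3 of 31 cells of animal 6 (9.68%) and in 9 of 13 cells of animal 1 (69.2%), with a mean over the 10 animals of 33.7% ± 17.1 (SD, n = 10). KCNG3 ran from 2 of 31 cells (6.45%) to 7 of 13 cells (53.8%) in the same pair of animals, with a mean of 28.5% ± 15.98 (SD, n = 10). Animal 6 was thus lowest and animal 1 highest for both subunits over all cells, and these animals had 3 of 31 and 8 of 13 OSMR-high cells. Within OSMR-high cells, defined below, the lowest and highest were animals 10 and 7 for KCNA2 and 4 and 10 for KCNG3, each pair at 40% and 80%, among 8 animals with at least 3 such cells. KCNIP1 ran from 17 of 31 cells (54.8%) in animal 6 to 34 of 35 cells (97.1%) in animal 4. KCNIP4 was detected in at least 92% of the cells of each animal.

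All 4 genes were more often detected and at a higher level in OSMR-high than in OSMR-low cells. KCNA2 had a count in 44 of 66 OSMR-high cells (66.7%, exact interval 54% to 77.8%) and in 28 of 160 OSMR-low cells (17.5%, 12.0% to 24.3%). KCNG3 had a count in 40 OSMR-high cells (60.6%, 47.8% to 72.4%) and 24 OSMR-low cells (15.0%, 9.85% to 21.5%). The median level was 4.66 CPM against 0 for KCNA2 and 7.06 CPM against 0 for KCNG3, so the median OSMR-low cell had no count of either subunit. KCNIP1 had a count in 59 OSMR-high cells (89.4%, 79.4% to 95.6%) and in 71.9% of OSMR-low cells (64.2% to 78.7%), at medians of 15.5 and 2.81 CPM. KCNIP4 had a count in all 66 OSMR-high cells and in all but 4 OSMR-low cells (97.5%, 93.7% to 99.3%), at medians of 912 and 245 CPM. For KCNIP4 the difference lay in the level and hardly in the share of cells.

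**Figure D1:**
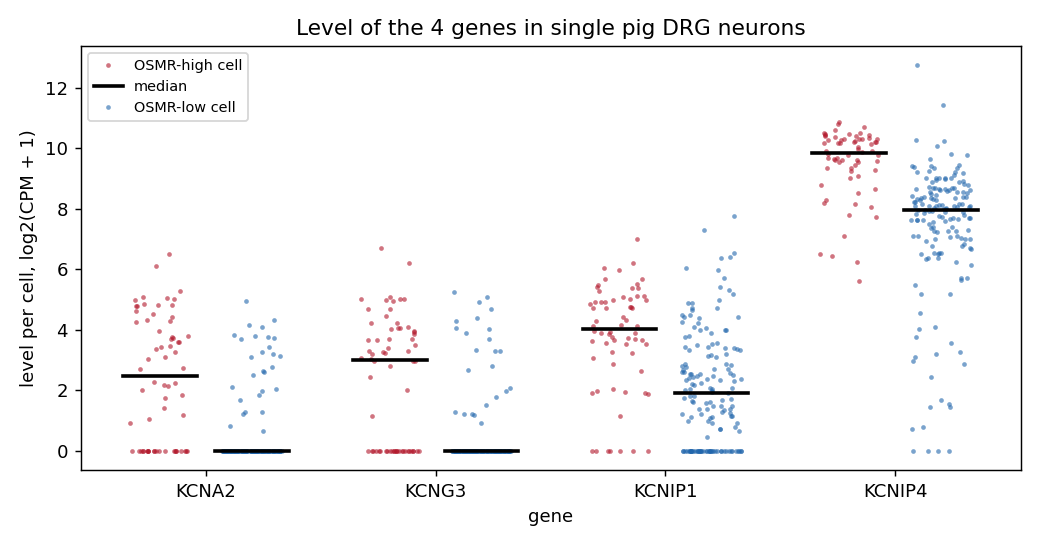
Level of KCNA2, KCNG3, KCNIP1 and KCNIP4 in each cell as log2(CPM + 1), with 66 OSMR-high cells in red, 160 OSMR-low cells in blue and black bars at the medians. The OSMR-low medians of KCNA2 and KCNG3 lie at 0, and the KCNIP4 points of OSMR-high cells gather around a median of 912 CPM against 245 CPM.

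The 2 strata had similar depth, with a median of 13624 genes per OSMR-high cell and 13216 per OSMR-low cell. When each cell was thinned to 200000 counts, which left out 3 OSMR-high and 16 OSMR-low cells, the expected share with a count was 55.5% against 13.3% for KCNA2 and 55.6% against 11.9% for KCNG3. For KCNIP1 it was 79.98% against 48.6%, and for KCNIP4 100% against 94.6%. The differences between the strata thus remained at an equal total count, and the number of genes per cell was not matched. Other marker lists also differed between the strata. The summed fibroblast markers had medians of 23.4 CPM in OSMR-high and 0.981 CPM in OSMR-low cells, mostly DCN, which had a count in 74.2% and 17.5% of cells. COL1A1, COL3A1 and LUM had medians of 0 in both strata. The summed Schwann cell markers had medians of 960 and 494 CPM, nearly all from PMP22, while SOX10 had medians of 0.548 and 0 CPM and MBP of 0 in both strata. The endothelial sum was 3.38 against 0.610 CPM, the satellite glia sum 60.4 against 49.9 CPM and the macrophage sum 7.39 against 8.10 CPM. The part of these markers in the results was not tested.

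Counts were then summed over the OSMR-high and over the OSMR-low cells of each animal, which gave both sums in 8 animals with at least 2 cells of each kind. KCNA2 was at 2.15 to 21.4 CPM (median 12.1) in the OSMR-high sums and at 0.170 to 3.97 CPM (median 1.29) in the OSMR-low sums. The mean log2 difference between them was 2.62 ± 1.79 (SD, n = 8), and it was positive in 7 of 8 animals. Only animal 10 had the opposite order, with 2.15 CPM in its OSMR-high and 3.97 CPM in its OSMR-low cells. KCNG3 was at 4.07 to 20.4 CPM (median 8.33) in the OSMR-high sums and 0 to 6.34 CPM (median 2.11) in the OSMR-low sums, a mean log2 difference of 2.38 ± 1.33 (SD, n = 8). It was higher in the OSMR-high cells of all 8 animals, although animal 2 had nearly equal values of 5.71 and 5.18 CPM, and the 28 OSMR-low cells of animal 6 had no count.

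KCNIP1 was at 6.44 to 43.1 CPM (median 21.1) in the OSMR-high sums and 4.72 to 13.3 CPM (median 9.98) in the OSMR-low sums, a mean log2 difference of 1.06 ± 0.88 (SD, n = 8). It was higher in 7 of 8 animals and again lower in animal 10, with 6.44 against 8.95 CPM. KCNIP4 was at 541 to 1402 CPM (median 949) in the OSMR-high sums and 213.1 to 404 CPM (median 271) in the OSMR-low sums. Its mean log2 difference was 1.74 ± 0.37 (SD, n = 8). KCNIP4 was the member whose animals varied least in this difference. In edgeR (quasi-likelihood test, blocked by animal), 6.30% of the 18121 genes tested passed an adjusted p of 0.05 in either direction and 3.10% were higher in OSMR-high cells. The members were chosen on this contrast, so no test of them is given.

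**Figure D2:**
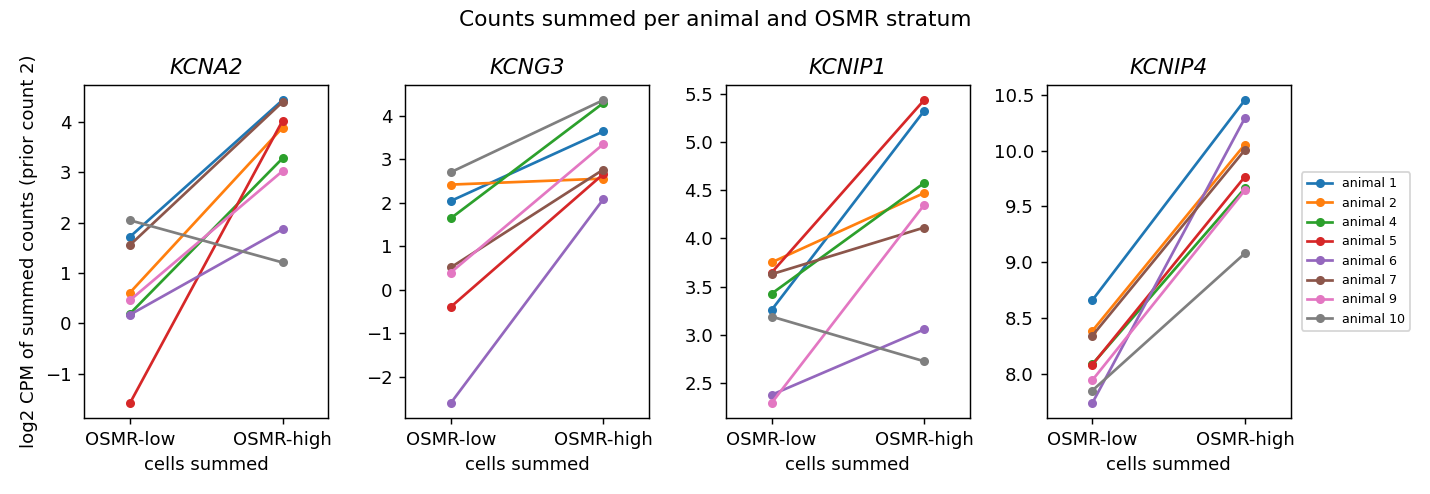
Counts of each gene summed over the OSMR-low and the OSMR-high cells of 1 animal, as log2 CPM with a prior count of 2, with 1 line for each of 8 animals and a separate vertical scale for each gene. All 8 lines run upward for KCNG3 and KCNIP4, and that of animal 10 runs downward for KCNA2 and KCNIP1.

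The other genes of the same channel complexes did not all follow. The Kv1 list had 13 genes with an identifier, of which 9 besides KCNA2 could be tested between the strata, and 3 of them passed, all higher in OSMR-high cells: the pore subunit gene KCNA3, the auxiliary subunit gene KCNAB1 and LGI1, a secreted partner of the Kv1 complex. The median log2 difference of the 9 genes was 0.36, against -0.04 over all genes tested. Of the other Kv1 subunits, KCNA1 was detected in 31.8% of OSMR-high and 26.9% of OSMR-low cells and KCNA4 in 39.4% and 16.9%. KCNA3 was detected in 81.8% and 44.4%, and KCNAB1, a beta subunit, in 84.8% and 65%. The partner genes were common in both strata, with KCNAB2 in 98.5% and 93.8% of cells, KCNAB3 in 96.97% and 95%, CNTN2 in 95.5% and 88.8%, ADAM22 in 96.97% and 90% and LGI1 in 95.5% and 89.4%. DLG4, a scaffold gene, was the one gene of this list found less often in OSMR-high cells, at 19.7% against 28.1%, among those detected in at least 20% of cells.

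Of the Kv2 list, 6 genes besides KCNG3 could be tested, and 1 of them, not reported here, passed, higher in OSMR-high cells. The median log2 difference of the 6 genes was -0.26. KCNB2, KCNG1, KCNS2, KCNS3 and KCNV1 are described here beside KCNG3, and none of these passed in edgeR, with adjusted p from 0.233 to 0.996. KCNS3 had an unadjusted p of 0.037, with a log2 difference of -0.66 ± 0.29 (SE). KCNB2, the Kv2.2 gene, was detected in 34.8% of OSMR-high and 33.1% of OSMR-low cells. The other silent subunits showed smaller gaps than KCNG3, with KCNG1 at 39.4% and 37.5%, KCNS2 at 60.6% and 36.3%, KCNS3 at 77.3% and 73.8% and KCNV1 at 62.1% and 48.1%.

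Of the Kv4 list, 5 genes besides KCNIP1 and KCNIP4 could be tested, and 1 passed, DPP10, which encodes another auxiliary protein of Kv4 channels and was higher in OSMR-high cells. The median log2 difference of the 5 genes was -0.01. The pore genes KCND1 and KCND3 were detected in 80.3% and 77.3% of OSMR-high and 59.4% and 65.6% of OSMR-low cells, and neither passed. KCND2 was found in 11 cells. KCNIP3 was at 45.5% and 42.5%, DPP6 at 77.3% and 48.8% and DPP10 at 90.9% and 60%. Of 19 other potassium channel genes that could be tested, KCNH8 and KCNK2 were higher in OSMR-high cells and KCNMB2 was lower.

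KCNA2 and KCNG3 were found in the same cells. Over all cells, 51 had both genes, 21 KCNA2 alone and 13 KCNG3 alone, and the others had neither. KCNG3 was thus present in 70.8% of the cells with KCNA2 and 8.44% of those without. Within OSMR-high cells the shares were 77.3% of 44 and 27.3% of 22 cells, and within OSMR-low cells 60.7% of 28 and 5.30% of the other cells. The pairing was thus present on both sides of the OSMR threshold. Among the cells with at least 10000 genes, the shares were 79.1% and 42.9% in OSMR-high and 62.96% and 7.53% in OSMR-low cells.

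Spearman's rho of the 2 genes, computed over the cells of 1 animal and averaged over animals with at least 5 usable cells, was 0.68 ± 0.21 in all cells (SD, n = 10 animals, positive in 10). It was 0.34 ± 0.30 in OSMR-high cells (7 animals, positive in 6) and 0.67 ± 0.30 in OSMR-low cells (7 animals, positive in 7). With the number of genes per cell held constant it was 0.25 in OSMR-high and 0.64 in OSMR-low cells. Among cells with at least 10000 genes it was 0.19 ± 0.27 in OSMR-high (5 of 7 animals) and 0.65 ± 0.32 in OSMR-low cells (7 of 7). The relation was thus weaker in OSMR-high cells, where most cells had both genes, and that difference was not tested. These points share their animal and culture, and many are ties at 0.

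**Figure D3:**
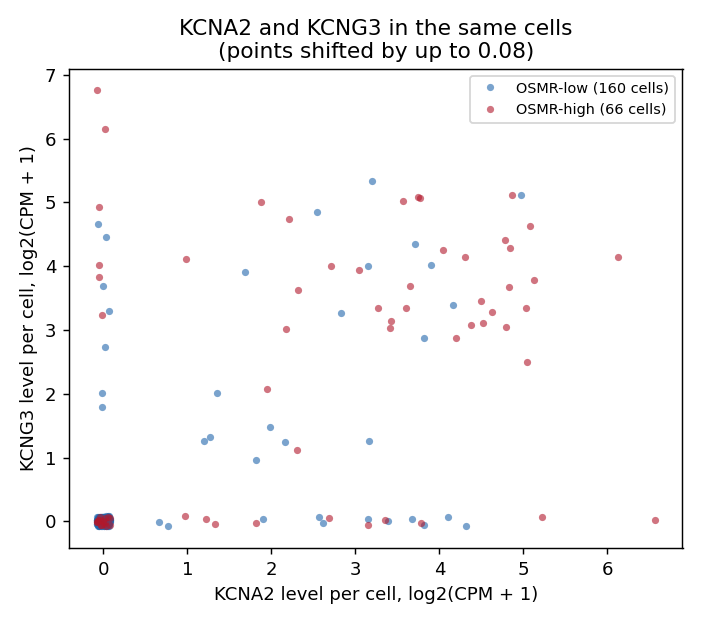
KCNA2 against KCNG3 in each cell, both as log2(CPM + 1), with points shifted by up to 0.08 so that overlapping cells can be seen. The cells with neither gene lie at the origin, and 51 cells with both genes fill the upper right.

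KCNIP1 went with KCNA2 in both strata, with mean rho of 0.51 ± 0.30 in OSMR-high cells (positive in 7 of 7 animals) and 0.27 ± 0.28 in OSMR-low cells (7 of 9 animals). With the number of genes held constant these values were 0.30 and 0.15. For KCNG3 with KCNIP1 they were 0.25 ± 0.23 (6 of 7 animals) and 0.24 ± 0.35 (6 of 7 animals). KCNIP4 had positive values with the 2 subunits in OSMR-high cells and values near 0 in OSMR-low cells, and the difference between the strata was not tested. With KCNA2 its mean rho was 0.39 ± 0.32 in OSMR-high cells (7 of 7 animals) and -0.03 ± 0.28 in OSMR-low cells (5 of 9). With KCNG3 it was 0.26 ± 0.35 (6 of 7 animals) and -0.05 ± 0.31 (3 of 7). The 2 KChIP genes had a mean rho with each other of 0.39 ± 0.30 in OSMR-high (6 of 7 animals) and 0.13 ± 0.32 in OSMR-low cells (6 of 10). OSMR itself went with KCNIP4 within OSMR-high cells, with a mean rho of 0.60 ± 0.31 (7 of 7 animals), and with KCNA2 at 0.38 ± 0.29 (7 of 7). The Schwann cell marker sum, nearly all PMP22, had a mean rho of 0.66 ± 0.27 with KCNA2 in OSMR-high cells (7 of 7 animals), and its part in these relations was not tested.

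Out of 11110 genes with a symbol that were detected in at least 20% of cells, KCNG3 was the gene most like KCNA2 and the reverse, with a mean within-animal rho of 0.64 over 9 animals with at least 10 cells. After it, KCNA2 was most like the cation channel gene TRPC6 (0.62), the kainate receptor gene GRIK1 (0.60), COCH (0.58) and SFRP4 (0.58). KCNG3 was next most like GRIK1 (0.57), TRPC6 (0.56), the GABA-B receptor gene GABBR2 (0.54) and COMP (0.53). The lists of the 2 subunits thus shared TRPC6 and GRIK1. KCNIP1 was most like GRIK1 (0.51), the sodium-calcium exchanger gene SLC8A1 (0.47), SNX10 (0.46), the Kv4 partner DPP10 (0.46) and MCC (0.46). KCNIP4 was most like the sodium channel gene SCN11A (0.61), KLHL14 (0.58), IL31RA (0.57), CD47 (0.55) and JAK1 (0.55). IL31RA and JAK1 belong with OSMR to the same cytokine receptor pathway and were among the markers of OSMR-expressing C-fibres used here.

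Below the OSMR threshold the most similar genes were others, apart from the pair of KCNA2 and KCNG3. For KCNG3 the first was again KCNA2, at 0.61 over 6 animals, followed by CDH9 (0.55), MED26 (0.50), ST6GALNAC3 (0.50) and HSD11B1 (0.49). For KCNA2, with 8 animals, they were HLF (0.55), DIO2 (0.52), CAP2 (0.47), ENPP2 (0.47) and RPH3A (0.46), and KCNG3 was not ranked because it varied in only 6 of these 8 animals. KCNIP1 was most like CD84 (0.44), PTGER3 (0.42), TMEM273 (0.41), ZNRF3 (0.41) and PLLP (0.40). KCNIP4 was most like MORN2 (0.45), PCDHAC2 (0.38), FRMPD1 (0.36), KRT23 (0.36) and FNDC4 (0.35). The values for KCNIP1 and KCNIP4 were lower than those over all cells.

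Among OSMR-low cells, KCNA2 and KCNG3 were found in a larger share of those rich in TRPM8, the cold-sensing channel gene. Most of the OSMR-low cells with KCNA2, and most of those with KCNG3, were still not rich in TRPM8. In a division made after the data were seen, KCNA2 was found in 11 of 29 OSMR-low cells with at least 50 CPM of TRPM8 (37.9%, 9 animals) and in 17 of the other OSMR-low cells (12.98%). KCNG3 was found in 9 (31.03%) and 15 (11.5%) of these cells. Median depth was 14035 and 12644 genes. KCNIP4 did not follow this division, with medians of 198.01 CPM in TRPM8-rich and 261 CPM in the other cells, and KCNIP1 was found in 72.4% and 71.8%. The OSMR-low cell with the highest KCNA2 level, 30.2 CPM, had 2362 CPM of TRPM8. The same cell of animal 10 was second for KCNG3, at 32.8 CPM. The highest KCNIP4 level of all, 6832 CPM, was in an OSMR-low cell of animal 4 with 23431 CPM of TAC1, the substance P precursor gene, and a value of 1 at 20 Hz.

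The recorded values come from the authors' cell table, which states no units. X20Hz and X50Hz are whole numbers from 0 to 20 recorded at 20 and 50 Hz. TTP, Min_AHP and the ADS values are named as in the table, whose abbreviations are not spelled out there. ADS_RT_ABS1 and ADS_RT_ABS75 belong to the first and the last of 75 pulses and were measured in 77.9% and 77.4% of cells, from 7 animals. Values over cells are described below by Spearman's rho within each animal. X20Hz, X50Hz and the ADS values were themselves related to cslow, the amplifier's measure of cell capacitance. The mean rho with cslow over all cells was -0.67 for X20Hz and -0.84 for X50Hz.

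At 20 Hz, cells with more of each gene had lower values. Over all cells the mean rho with X20Hz was -0.48 ± 0.21 for KCNA2 (negative in 10 of 10 animals), -0.53 ± 0.29 for KCNG3 (10 of 10), -0.45 ± 0.20 for KCNIP1 (9 of 10) and -0.46 ± 0.16 for KCNIP4 (10 of 10). The OSMR strata differ in both quantities, so each stratum is given separately. In OSMR-high cells the mean rho was -0.47 ± 0.39 for KCNA2 (6 of 7 animals), -0.35 ± 0.30 for KCNG3 (6 of 7), -0.47 ± 0.26 for KCNIP1 (7 of 7) and -0.43 ± 0.29 for KCNIP4 (7 of 7), over 61 cells. Animal 4 had a positive value for KCNA2, 0.11, and animal 10, with 5 cells, for KCNG3, 0.11. In OSMR-low cells the mean rho was near 0 for KCNA2 at -0.04 ± 0.18, for KCNG3 at -0.05 ± 0.22 and for KCNIP4 at -0.12 ± 0.17. KCNIP1 had -0.28 ± 0.20 there, negative in 7 of 8 animals. In this stratum 83.02% of cells were at the largest X20Hz value and most had no count of KCNA2 or KCNG3, so these values rest on few untied cells and do not show that a relation is missing. OSMR itself had a mean rho with X20Hz of -0.35 ± 0.28 in OSMR-high cells (7 of 7 animals).

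The relation can be read from the share of cells. Of the OSMR-high cells with an X20Hz value of 0 to 5, 17 had KCNA2 and 17 had KCNG3, or 80.95% each (21 cells from 7 animals). At values over 5 to 10 the shares were 77.8% and 72.2% (18 cells), over 10 to under 20 they were 77.8% and 66.7% (9 cells), and at 20 they were 33.3% and 22.2% (18 cells from 8 animals). The low shares thus lay at the highest value. Along the same steps the median of KCNIP4 was 1184, 1152, 931 and 454 CPM, and that of KCNIP1 was 25.3, 22.2, 10.6 and 7.87 CPM. The cells at 20 were also shallower, with a median of 11734 genes against 14234 in those at 0 to 5.

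The pair of subunits divided the OSMR-high cells in the same way. The 34 cells with both genes had a median X20Hz of 7.0, and 2 of them (5.88%) were at 20. The 16 cells with neither gene had a median of 20.0, and 10 (62.5%) were at 20. The 10 cells with KCNA2 alone had a median of 11.5 and the 6 cells with KCNG3 alone a median of 6.0. In OSMR-low cells the median was 20.0 in every class, with 70.6% at 20 among the 17 cells with both genes and 85.5% among those with neither. The OSMR-high classes differed in more than this value. Cells with both genes had a median cslow of 119.3, 14299 genes and 343 CPM of OSMR, and cells with neither 68.6, 9952 genes and 162.2 CPM of OSMR. The part of cell size, depth and OSMR level in this difference was not tested by class.

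**Figure D4:**
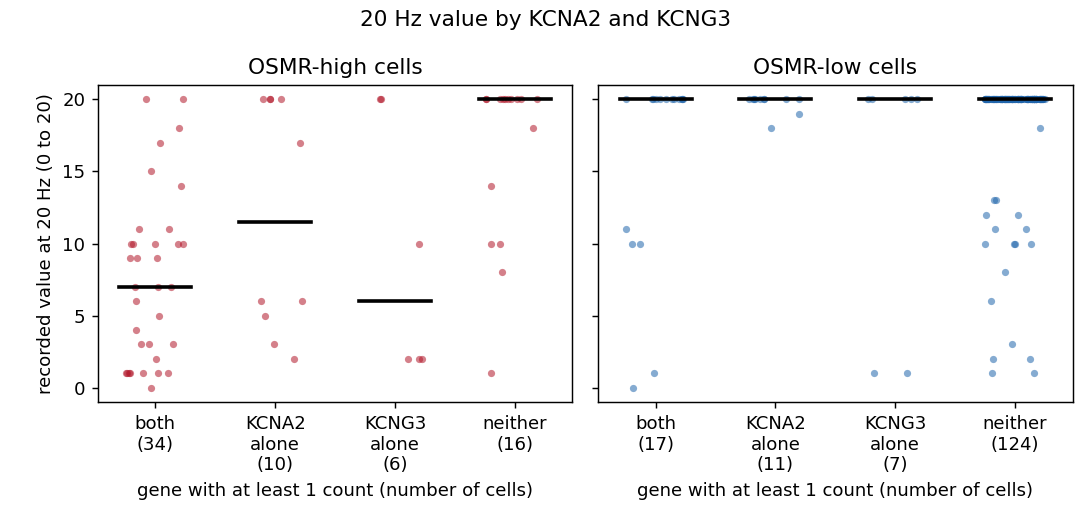
X20Hz of each cell by whether it had at least 1 count of KCNA2 and KCNG3, in OSMR-high cells at left and OSMR-low cells at right, with black bars at the medians and the number of cells in brackets. In OSMR-high cells the median is 7.0 with both genes and 20.0 with neither, and in OSMR-low cells it is 20.0 in all 4 classes.

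With cslow held constant, a comparison chosen after the data were seen, the mean rho with X20Hz over all cells was -0.34 for KCNA2, -0.38 for KCNG3, -0.32 for KCNIP1 and -0.29 for KCNIP4. In OSMR-high cells it was -0.40, -0.27, -0.09 and -0.27 in the same order. The SDs over 7 animals were 0.47, 0.43, 0.54 and 0.33, so the members' values in OSMR-high cells do not differ beyond their spread. In OSMR-low cells KCNIP1 came to -0.08 ± 0.41, negative in 5 of 8 animals. The members' own mean rho with cslow in OSMR-high cells was 0.46 ± 0.43 for KCNA2, 0.34 ± 0.27 for KCNG3, 0.41 ± 0.37 for KCNIP1 and 0.24 ± 0.42 for KCNIP4.

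At 50 Hz the mean rho of each member was again negative over all cells and in OSMR-high cells. In OSMR-high cells the mean rho with X50Hz was -0.42 ± 0.35 for KCNA2 (7 of 7 animals), -0.28 ± 0.34 for KCNG3 (6 of 7), -0.47 ± 0.27 for KCNIP1 (7 of 7) and -0.34 ± 0.40 for KCNIP4 (5 of 7). In OSMR-low cells it was -0.01, 0.05, -0.24 and -0.05. With cslow held constant the values over all cells came to -0.10 for KCNA2 and -0.03 for KCNG3, from -0.37 and -0.37, and to -0.31 for KCNIP1 and -0.18 for KCNIP4, from -0.43 and -0.41. In OSMR-high cells they were -0.20 ± 0.48 for KCNA2, -0.19 ± 0.51 for KCNG3, -0.28 ± 0.24 for KCNIP1 and -0.32 ± 0.37 for KCNIP4. Of these, only KCNIP1 was negative in 7 of 7 animals.

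The members were higher in cells with larger ADS_RT_ABS1. Over all cells with this value the mean rho was 0.41 ± 0.17 for KCNA2, 0.37 ± 0.23 for KCNG3, 0.38 ± 0.17 for KCNIP1 and 0.50 ± 0.21 for KCNIP4, positive in 7 of 7 animals for each. In OSMR-high cells (5 animals, 43 cells) it was 0.49 ± 0.35, 0.30 ± 0.29, 0.59 ± 0.34 and 0.43 ± 0.32 in the same order. In OSMR-low cells it was -0.0029 for KCNA2, -0.13 for KCNG3, 0.13 for KCNIP1 and 0.21 for KCNIP4. The difference between the strata was not tested. With cslow held constant, the values over all cells were 0.16, 0.09, 0.20 and 0.18 in the same order, and in OSMR-high cells 0.08 ± 0.55, 0.31 ± 0.39, 0.25 ± 0.52 and 0.30 ± 0.32. With OSMR at 100 CPM as the threshold, KCNIP4 had 0.0087 in place of 0.43. The value at the last pulse, ADS_RT_ABS75, gave nearly the same, with 0.41, 0.37, 0.39 and 0.48 over all cells.

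ADS_TTP, which at pulse 75 equals the difference of ADS_RT_ABS75 and ADS_RT_ABS1, was positively related to KCNA2, KCNG3, KCNIP1 and KCNIP4 at each of 74 pulses over all cells. For KCNA2 the mean rho was 0.29 at its first pulse and highest at pulse 18 with 0.49, and for KCNG3 it was 0.31 and highest at pulse 13 with 0.45. In OSMR-high cells KCNIP1 reached 0.54 at pulse 74, while KCNIP4 reached 0.35 at pulse 4 and had 0.03 at the last pulse. In OSMR-low cells the mean rho with ADS_TTP at pulse 75 was 0.13 for KCNA2, 0.10 for KCNG3, -0.02 for KCNIP1 and 0.11 for KCNIP4. ADS_Slope and ADS_Peak had a negative mean rho with each member at each of 74 pulses over all cells. Values of ADS_TTP, ADS_Slope and ADS_Peak were not computed with cslow held constant. The pulses of 1 cell are not independent of each other.

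With TTP and Min_AHP the mean rho of each member over all cells was closer to 0 than with X20Hz. In OSMR-high cells the mean rho with TTP was positive for each member, and for KCNG3 in 6 of 7 animals. With cslow held constant, the OSMR-high means with TTP were -0.03 ± 0.39 for KCNA2 (positive in 4 of 7 animals) and 0.30 ± 0.22 for KCNG3 (6 of 7). They were -0.01 ± 0.60 for KCNIP1 (3 of 7) and 0.13 ± 0.40 for KCNIP4 (3 of 7). The mean rho with TTP over all cells lay between -0.00098 for KCNIP1 and 0.09 for KCNA2, and in OSMR-high cells between 0.15 for KCNIP1 and 0.29 for KCNIP4, with SDs of 0.23 to 0.52. With Min_AHP it lay between 0.05 for KCNG3 and 0.16 for KCNIP1 over all cells, with 5 to 7 of 10 animals positive. Outside the listed values, KCNIP4 had a mean rho with APD of 0.39 ± 0.19 over all cells (10 of 10 animals), 0.40 ± 0.27 in OSMR-high cells (7 of 7) and 0.06 ± 0.21 in OSMR-low cells (6 of 10). OSMR itself had 0.48 ± 0.23 with APD over all cells (10 of 10 animals).

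**Figure D5:**
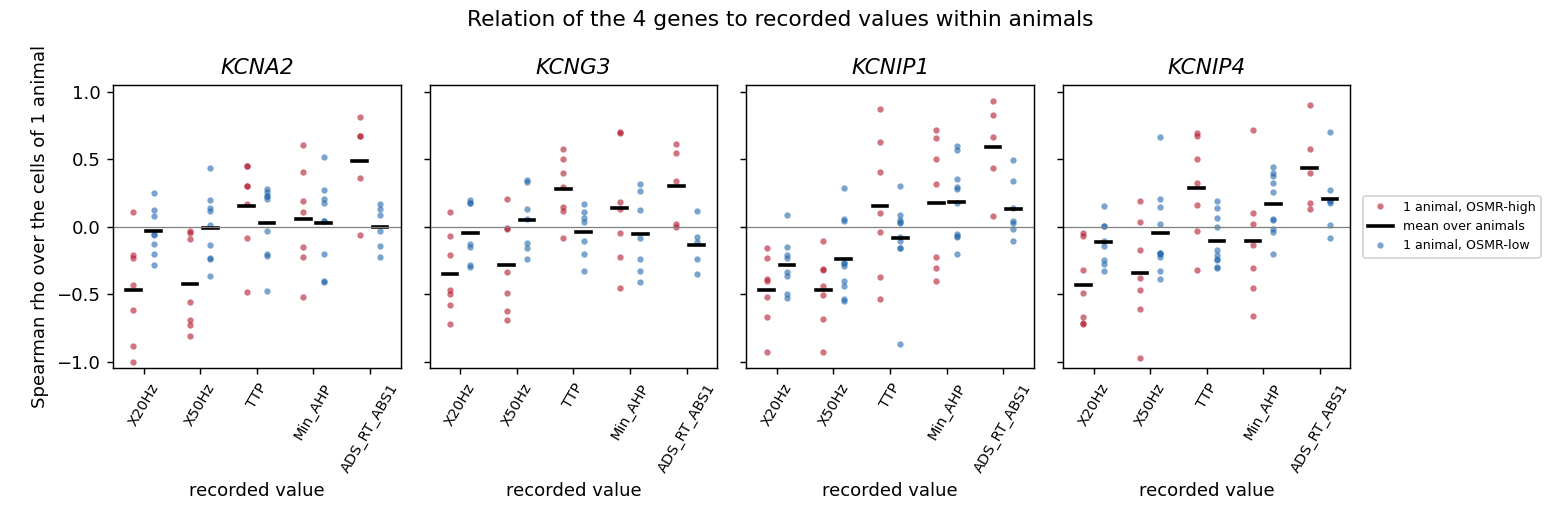
Spearman's rho of each gene with 5 recorded values over the cells of 1 animal, with 1 point per animal (red for OSMR-high, blue for OSMR-low cells) and black bars at the means. In OSMR-high cells the X20Hz means lie between -0.47 and -0.35 and the ADS_RT_ABS1 means between 0.30 and 0.59, while the TTP and Min_AHP points spread to both sides of 0.

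For a test over animals, the cells of each stratum were divided at the stratum's median of a recorded value, and the counts on each side of it were summed per animal. X20Hz in OSMR-high cells divided 27 cells above 10 from 39 at or below it, with both sums in 6 animals. KCNIP1 was lower above the median in 5 of 6 animals, with a fitted log2 change of -0.87 ± 0.39 (SE) and an unadjusted p of 0.044. Its adjusted p in edgeR was 1.000, so the change did not pass. KCNA2 changed by -0.51 ± 0.69 and KCNIP4 by -0.37 ± 0.30, each lower in 4 of 6 animals. With the OSMR threshold at 100 CPM these changes were 0.12 and 0.13, and that of KCNA2 was 0.013 without animal 9. KCNG3, for which no p is given, changed by -1.55 ± 0.91 and was also lower in 4 of 6 animals. In ADS_RT_ABS1 KCNIP1 was higher above the median in 4 of 4 animals, by 0.85 ± 0.40. Over the 6 recorded values in OSMR-high cells, 0 of 21 member tests were called by edgeR, with adjusted p from 0.995 to 1.0. Of these tests, that of KCNIP1 with X20Hz was the 1 with an unadjusted p under 0.05. Earlier results of these data had related the members to the recorded values, so this p is no independent support.

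No gene of the table was called in these 12 divisions by edgeR, so percent called was 0 in each, and the result is not particular to the members. Between 190 and 757 genes had an unadjusted p under 0.05, of 12777 to 15999 tested. DESeq2 called 0 genes for X20Hz and Min_AHP in OSMR-high cells and 4 to 33 genes in the other 10 divisions. In OSMR-low cells KCNA2 and KCNG3 had too few counts to be tested. The sums of OSMR-low cells at an X20Hz of 20 had a median of 1.42 CPM of KCNA2 against 1.67 CPM in the other OSMR-low cells (8 animals, higher at 20 in 6 and lower in 2). For KCNG3 the medians were 2.38 and 0.411 CPM, higher at 20 in 7 animals and lower in 0. The shares of cells with a count did not follow these sums. KCNG3 had a count in 44.4% of OSMR-low cells at 0 to 5 and 25% at over 5 to 10. Its shares were 10% at over 10 to under 20 and 12.9% at 20. Along these steps the shares of KCNA2 were 22.2%, 25%, 30% and 15.9%. The steps below 20 hold 9, 8 and 10 cells. Sums and shares thus give no common order in OSMR-low cells. The sums below 20 rest on 3 or 4 cells of each animal. Of the KCNIP1 and KCNIP4 tests in OSMR-low cells, 0 of 10 were called, with adjusted p from 0.993 to 1.000.

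Time in culture and age were not used to choose the genes. KCNA2 was detected in 37.1% of cells at day 1, 25.6% of 78 at day 2 and 6 of 24 (25%) at day 3, and KCNG3 in 30.6%, 26.9% and 20.8%. In OSMR-high cells the shares of KCNA2 were 78.8% of 33, 64% of 25 and 25% of 8 cells, those of KCNG3 72.7%, 56% and 25%, and those of KCNIP1 96.97%, 84% and 75%. KCNIP4 was detected in all of these cells. The 8 OSMR-high cells at day 3 came from 3 animals.

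Summed per animal, KCNA2 was at 1.34 to 14.4 CPM (median 4.95, 9 animals) at day 1 and 0 to 11.4 CPM (median 2.22, 8 animals) at day 2, lower at day 2 in 6 of the 7 animals with both days. KCNG3 was at 0.472 to 15.9 CPM (median 4.30) and 0.288 to 12.1 CPM (median 3.67), lower in 4 of 7. KCNIP1 was at 4.22 to 21.2 CPM (median 10.9) and 3.18 to 13.4 CPM (median 9.58), lower in 5 of 7. KCNIP4 was at 233 to 970 CPM (median 530) and 225.99 to 587 CPM (median 388), lower in 4 of 7. The ranges of the 2 days overlapped for every member. These sums pool OSMR-high and OSMR-low cells, and the part of that mix was not tested. In edgeR with the animal as a block, the log2 change from day 1 to day 2 was -0.96 ± 0.88 (SE) for KCNA2, -0.18 ± 0.81 for KCNG3, -0.38 ± 0.37 for KCNIP1 and -0.24 ± 0.20 for KCNIP4. The adjusted p was 1.000 for each, and 0 of 4 members were called. No gene was called among 20267 (percent called 0), 755 had an unadjusted p under 0.05, and DESeq2 called 22.

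Age was tested as a slope over the day 1 sums of 9 animals. The sums were rescaled for this comparison, so their CPM differ slightly from those above. KCNIP4 was at 1022 and 732 CPM in the 2 animals of 11 weeks, 574 CPM at 12 weeks, 535 CPM at 14 weeks, 510 and 332 CPM at 15 weeks, 417 CPM at 17 weeks and 686 and 232 CPM at 18 weeks. The highest values were thus in the youngest animals, and the 2 animals of 18 weeks lay far apart. These sums pool OSMR-high and OSMR-low cells, whose shares differed between animals. Over all days, animal 1 (11 weeks) had 8 OSMR-high and 5 OSMR-low cells, and animal 6 (15 weeks) had 3 and 28. The part of this mix in the age values was not tested. The slope was -0.13 ± 0.06 (SE) on the log2 scale per week, with an unadjusted p of 0.037 and an adjusted p in edgeR of 0.769, which did not pass. The slopes of KCNA2, KCNG3 and KCNIP1 were -0.05 ± 0.10, -0.14 ± 0.15 and -0.11 ± 0.09, with adjusted p of 0.985, 0.947 and 0.915. For age, 0 of 4 members and 0 of 19731 genes were called (percent called 0), 1224 genes had an unadjusted p under 0.05, and DESeq2 called 53. Of the 4 lists of potassium channel genes, 0 of 44 genes besides the members were called for day and 0 of 40 for age.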

How the data were processed

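Per the labels' protocols, the recording pipette and a second pipette that took up the whole cell were broken into 1 tube, and libraries were made with Smart-Seq2. Of the software, the submitters' processing notes list bcl2fastq 2.20. How reads were aligned and counted, and on which build, is not given in the sources used here, so no coordinates are printed. Smart-Seq2 has no molecular identifiers and is not stranded, and reads of overlapping genes cannot be separated. Values in the gene table are estimated counts, made and deposited by the authors and not scaled, and 52.1% of its values above 0 were not whole. The deposited cell table holds other values, 1 per cell and recorded value with no unit stated, and names the animal. Its age and day differed from the titles in 0 cells, and 43 of its lines belong to no sample used here. Cells were picked singly, so no doublet caller was run, and no cell was left out.

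CPM was computed from a cell's total, and log2 levels of cells have a pseudocount of 1. A gene was detected with at least 1 count. Spearman's coefficient was computed within animals with at least 5 cells. Counts were summed per animal and side (at least 2 cells, or 3 for day and age), rounded to whole numbers and tested with edgeR 4.0.16 under R 4.3.3 (TMM scaling, filterByExpr, quasi-likelihood test, the animal as a block except for age, Benjamini-Hochberg adjustment over all genes tested, threshold 0.05). CPM of summed counts was TMM-scaled within each comparison, so the same sum can differ slightly between comparisons. The animal on both sides of a comparison pairs the sums. X20Hz in OSMR-low cells was divided at its largest value, since most cells were there. The procedure was tested on simulated counts. Alternatives were DESeq2 1.42.0, other scaling, no filter, no block, OSMR thresholds of 20 and 100 CPM, day 1 alone, cells with at least 10000 genes, Pearson's r and leaving out each animal.

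The members, gene lists and marker lists were chosen with earlier results of these data known. Named genes were the 4 members, OSMR, the listed potassium channel genes that were called or, for the Kv1, Kv2 and Kv4 lists, detected in at least 20% of cells, and the 5 genes most like each member. KCND2, KCNH8, KCNK2, KCNMB2, the TRPM8 division and the single cells were named after their values were seen, and thinning and the correction for cslow were chosen after the data were seen. KCNA5, KCNA6, CNTNAP2, KCNG4, KCNK12 and KCNK18, and the markers CALCA, NEFH, GLUL and S100B, were not paired with an identifier and were not analysed here. Some listed genes are not reported here.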

Additional observations from a re-analysis of the deposited data

Results flagged for a closer look

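Among 56 groups of 4 to 10 values per animal, 2 held a value that lay far from the others, where chance gives about 1 in 20 groups. The rho of KCNIP1 with TTP in OSMR-low cells was -0.87 in animal 8, against -0.16 to 0.30 in the other 9 of 10 animals. Animal 8 had 5 OSMR-low cells. The log2 difference of KCNIP4 between the OSMR-high and OSMR-low sums was 2.56 in animal 6, against 1.23 to 1.79 in the other 7 of 8 animals, and rested on 3 OSMR-high cells. The mean over animals includes the flagged value in each case. For KCNIP1 with TTP in OSMR-low cells that mean was -0.09, with 5 animals positive and 5 negative.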

How the results depend on the processing

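The log2 difference of KCNIP4 between OSMR-high and OSMR-low cells, on which it was chosen, was 1.24 with OSMR at 20 CPM in place of 1.77, and the other values of the members in this contrast moved by less than 1 SD over animals. Of 576 alternative values of rho with recorded values, 551 stayed within 1 SD over animals and 25 moved further, some of these with a change of sign. Most of the moves came from holding cslow constant, where 20 of 72 values moved. At day 1 alone 3 of 72 moved, and with OSMR at 100 CPM 2 of 72. Without the animal as a block the OSMR comparison called 716 genes in place of 1142, and the block changed no other call. It called 1945 genes with DESeq2, 293 with OSMR at 20 CPM, 1723 at 100 CPM, 532 at day 1 alone and 795 to 1104 when each animal was left out. Small numbers of cells per animal and few animals limit the divisions by recorded value, which could not be fitted at day 1 alone for X20Hz, ADS_RT_ABS1 and ADS_RT_ABS75 in OSMR-high cells, with fewer than 3 animals. The cause of the differences below was not tested.

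With all genes of at least 1 count, edgeR called 14 genes for X20Hz, 29 for X50Hz, 27 for TTP, 38 for ADS_RT_ABS1 and 28 for ADS_RT_ABS75 in OSMR-high cells, and 8 for X50Hz, 18 for TTP, 1 for Min_AHP, 24 for ADS_RT_ABS1 and 30 for ADS_RT_ABS75 in OSMR-low cells. DESeq2 called 7 for X50Hz, 4 for TTP, 15 for ADS_RT_ABS1 and 16 for ADS_RT_ABS75 in OSMR-high cells. In OSMR-low cells it called 12 for X20Hz, 27 for X50Hz, 11 for TTP, 16 for Min_AHP, 22 for ADS_RT_ABS1 and 33 for ADS_RT_ABS75, with 22 for day and 53 for age. At day 1 alone 1 gene was called for TTP in OSMR-high and 1 for X50Hz in OSMR-low cells. Leaving out each animal gave 0 to 1 genes for X50Hz and 0 to 12 for ADS_RT_ABS75 in OSMR-high cells, and 0 to 2 for X50Hz, 0 to 1 for TTP, 0 to 1 for Min_AHP and 0 to 1 for ADS_RT_ABS1 in OSMR-low cells.

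With at least 5 counts for detection, KCNA2 was found in 42.4% of OSMR-high cells, KCNIP1 in 42.5% of all, 63.6% of OSMR-high and 33.8% of OSMR-low cells, and KCNIP4 in 92.04% of all and 88.8% of OSMR-low cells. After thinning, KCNIP1 was at 58.1% of all and 48.6% of OSMR-low cells.

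With cslow held constant, KCNA2 had a mean rho over all cells of -0.10 with X50Hz, 0.16 with ADS_RT_ABS1 and 0.15 with ADS_RT_ABS75, in OSMR-high cells 0.082 and 0.10 with the 2 ADS values, and in OSMR-low cells 0.14 with X20Hz. KCNG3 had -0.031, 0.094 and 0.10 over all cells, and in OSMR-low cells 0.29 with X50Hz and -0.32 with ADS_RT_ABS1. KCNIP1 had 0.20 and 0.20 with the 2 ADS values over all cells, and -0.092 and -0.075 with X20Hz in OSMR-high and OSMR-low cells. KCNIP4 had -0.29 with X20Hz, -0.18 with X50Hz, 0.18 and 0.15 with the 2 ADS values over all cells, and -0.074 with ADS_RT_ABS75 in OSMR-low cells. With OSMR at 100 CPM, KCNIP4 had 0.0087 and 0.031 with ADS_RT_ABS1 and ADS_RT_ABS75 in OSMR-high cells. At day 1 alone, KCNG3 had 0.30 with TTP in OSMR-low cells, and KCNIP1 had -0.31 and KCNIP4 -0.56 with Min_AHP in OSMR-high cells.

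Among changes that were not called, those that reversed were as follows. With OSMR at 100 CPM the log2 change was 0.12 for KCNA2 and 0.13 for KCNIP4 with X20Hz, 0.39 and 0.20 with X50Hz, and -0.18 for KCNG3, -0.28 for KCNIP1 and -0.31 for KCNIP4 with Min_AHP, in OSMR-high cells. With OSMR at 20 CPM it was -0.12 for KCNG3 with Min_AHP in OSMR-high cells, and in OSMR-low cells -0.052 for KCNIP1 and -0.10 for KCNIP4 with ADS_RT_ABS1 and -0.089 for KCNIP4 with ADS_RT_ABS75. At day 1 alone it was -0.23 for KCNA2 with TTP, and -0.35, -0.40, -0.51 and -0.38 for KCNA2, KCNG3, KCNIP1 and KCNIP4 with Min_AHP in OSMR-high cells. In OSMR-low cells it was 0.50 for KCNIP1 with TTP and 0.67 for KCNIP4 with Min_AHP. When each animal was left out, KCNA2 ran from -1.08 to 0.013 (without animal 9) with X20Hz, -0.89 to 0.025 (animal 5) with X50Hz, -0.0018 (animal 5) to 0.80 with Min_AHP and -0.37 (animal 9) to 2.22 with ADS_RT_ABS75 in OSMR-high cells, and -0.15 to 0.10 (animal 1) per week of age. KCNIP4 ran from -0.17 to 0.22 with Min_AHP (reversed without animal 5 or 9), -0.067 to 0.84 with ADS_RT_ABS1 and -0.056 to 1.16 with ADS_RT_ABS75 (both animal 9) in OSMR-high cells, and -0.0054 to 0.30 and -0.075 to 0.25 with the 2 ADS values in OSMR-low cells (both animal 4). KCNIP1 in OSMR-low cells ran from -0.34 to 0.11 with TTP (animals 2, 4, 7 and 8), -0.32 to 0.30 with X50Hz (5, 7 and 10) and -0.0096 to 0.55 with ADS_RT_ABS1 (5). KCNG3 ran from -0.44 to 0.26 from day 1 to day 2 (4 and 5).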
